A study of Mus musculus with 8 samples.

Results

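The genes described here are the WNT ligands, their Frizzled receptors, the LRP co-receptors, the secreted antagonists and agonists of the pathway, and its feedback gene Axin2, measured in epididymal white adipose tissue (eWAT). They were taken by name: every gene of the array whose symbol begins with Wnt or Fzd and a number, and 12 further genes (Sfrp1, Sfrp2, Sfrp4, Dkk2, Dkk3, Wif1, Frzb, Lrp5, Lrp6, Rspo1, Rspo3 and Axin2). This gave 42 of the 22180 genes of the array: 19 ligands, 10 receptors, 2 co-receptors, 7 antagonists, 2 agonists, Axin2 and Fzd10os, a transcript named for lying opposite Fzd10, which the name rule takes in although it is no receptor. The tissue came from male mice on the C57BL/6J background and normal chow: 3 were wild type (WT) and 5 lacked Abhd15 (KO). They were sampled at 14 weeks of age, after a night without food and 1 h of refeeding, with 1 array per mouse. ABHD15 is an adipocyte protein linked to the control of lipolysis by insulin, and the comparison asks what its loss does to transcript levels in fat. The sources used here do not give how the Abhd15 allele was made.

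WNT proteins are secreted, lipid-modified signals that bind a Frizzled receptor together with LRP5 or LRP6. In the canonical branch this stops the destruction of beta-catenin, which then acts with TCF and LEF factors on target genes, among them Axin2, whose product feeds back to restrain the signal. SFRP proteins, FRZB and WIF1 bind the ligands themselves, DKK proteins are best known for acting on the co-receptors, and R-spondins strengthen signalling by sparing Frizzled receptors from degradation. In fat tissue, canonical signalling is known for holding precursor cells back from becoming adipocytes.

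Values are log2 signals made by RMA, a method that corrects background, normalizes arrays to each other and merges the probes of a probe set. A signal depends on the probes, so levels of different genes were not ranked against each other. Genes were tested if their mean over the 8 arrays reached the median of all gene means (3.61), which 11090 genes did. Of the 42 WNT genes 18 did: 4 ligands, 7 receptors, both co-receptors, 3 antagonists, Rspo1 and Axin2. Each test compared KO with WT in limma, two-sided, with Benjamini-Hochberg adjustment over all 11090 genes and a threshold of 0.05. Beside it stands, for single values, a two-sided exact permutation p from all 56 divisions of the 8 arrays into 3 and 5, which cannot go below 0.0357. Since eWAT is a mixture of cells, fewer cells of a type and less RNA per cell cannot be told apart.

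The adipocyte markers (Adipoq, Plin1, Lep, Cidec, Lipe and Fabp4) were bright in every array, with a list mean of 10.2 to 10.8. Abhd15 itself read 6.36, 6.45 and 6.15 in WT 1 to 3 and 5.77, 6.07, 6.27, 5.60 and 5.75 in KO 1 to 5, so the array labelled KO 3 lay inside the WT values, as it did on a second probe set (4.19, against 4.07 to 4.51 in WT). The sources used here do not place these probes relative to the deletion, and so the labels are not checked by them. Several arrays stood apart. Immediate early genes averaged 6.78 in both KO 1 and KO 2 against 3.92 to 5.61 elsewhere, and the erythroid gene Slc4a1 was high in the same arrays (4.72 and 5.28 against 2.61 to 3.11). Seminal vesicle transcripts averaged 6.37 in WT 1 against 1.61 to 2.32 elsewhere, and epididymal transcripts 6.36 in KO 4 against 1.72 to 2.56. Sperm and testis transcripts averaged 6.18 in WT 1, 4.54 in WT 2 and 3.91 in KO 4 against 2.42 to 3.14. KO 5 had the lowest median over the tested genes (5.93) and the lowest array weight in limma (0.335). The part of these differences in the WNT results was not tested, and values without an array are given beside the results it moved most.

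No WNT gene passed the threshold in KO against WT (0.0% of all tested genes did). At an unadjusted limma p under 0.05, 1 of the 18 tested WNT genes differed, Axin2, which was lower in KO, against a background of 10.5% of all tested genes in either direction and 6.46% lower. For none of the 18 were the groups free of overlap, where 8.53% of all tested genes had KO arrays all on one side of all WT arrays. Of the 18, 10 had a higher mean in KO and 8 a lower one, with a median log2 fold change of 0.01 and a median absolute one of 0.20, beside -0.03 and 0.15 over all tested genes. An alternative fit had a block for the replicate number. KO 4 and KO 5 have no partner there, so its fold changes rest on WT 1 to 3 and KO 1 to 3. With this block 4 of the 18 (22.2%) had an unadjusted p under 0.05 (Axin2, Fzd7, Sfrp1 and Sfrp2), beside 18.0% of all tested genes. Again none of the 18 passed the threshold. The count of 1 in the fit without a block (5.56%) was 0 without WT 1 or KO 2, beside 6.72% and 8.03% of all tested genes. It was 2 (11.1%) without WT 2, KO 3, KO 4 or KO 5, beside 8.64%, 10.4%, 10.8% and 14.4%. Without WT 3 the gene was Fzd4 in place of Axin2, beside 8.2% of all tested genes. Without KO 1 and KO 2 it was Fzd6 (beside 9.49%), and without WT 1 and KO 4 it was Sfrp1 (beside 6.6%). Without KO 3 the genes were Axin2 and Fzd5.

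**Figure D1:**
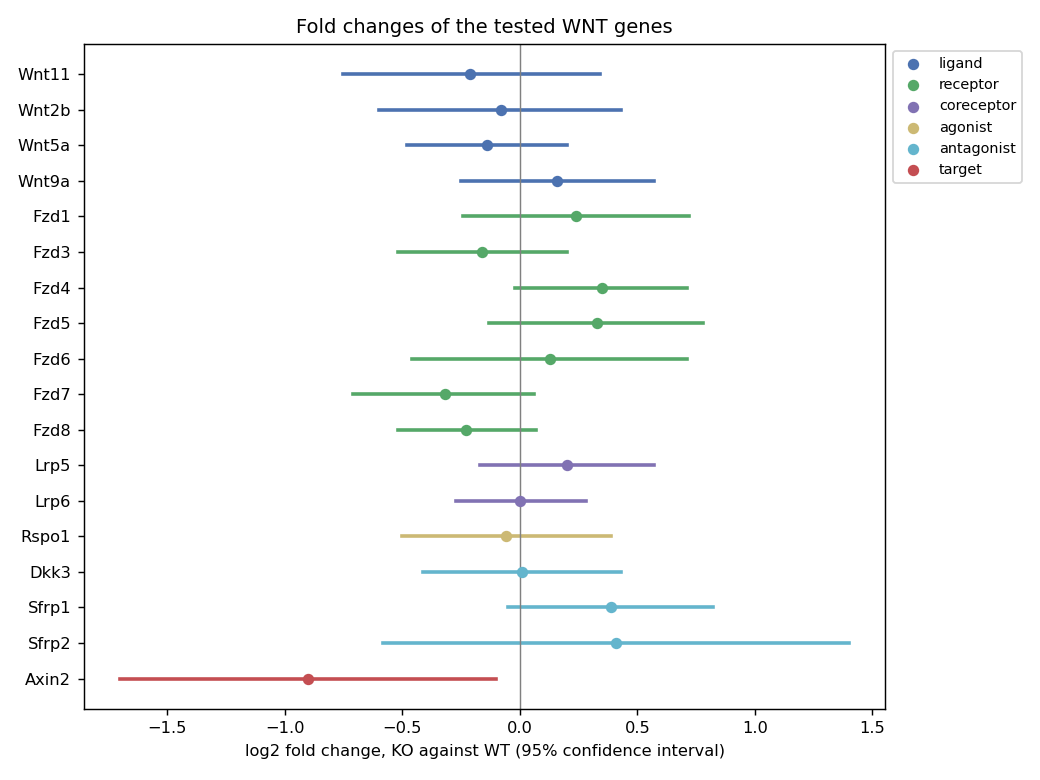
Log2 fold change of KO against WT for the 18 tested WNT genes (x axis, points) with its 95% confidence interval in limma (lines), coloured by role. The interval excludes 0 for Axin2 alone (-1.70 to -0.10), and those of the other genes include 0.

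Axin2 encodes a scaffold of the beta-catenin destruction complex and is the transcriptional readout most often used for canonical WNT signalling. At its brighter probe set the signal was 7.25, 7.07 and 7.49 in WT 1 to 3, and 5.39, 6.00, 6.37, 6.78 and 7.30 in KO 1 to 5. KO 1 to KO 4 lay below every WT array, KO 5 lay inside the WT range, and the KO arrays spanned far more than the WT arrays (SD 0.728 against 0.210). The WT mean was 7.27 ± 0.210 (SD, n = 3) and the KO mean 6.36 ± 0.728 (SD, n = 5). The log2 fold change was thus -0.90 (SE 0.358), or 0.535 of the WT level. The difference had an unadjusted p of 0.0305 and an adjusted p of 0.423 in limma, and an exact permutation p of 0.107. It came to -0.46 without KO 1 and KO 2 (adjusted p = 0.595 in limma) and to -1.14 without KO 5 (adjusted p = 0.170). With the replicate block, where KO 4 and KO 5 do not enter the fold change, it was -1.35 (unadjusted p = 0.000509, adjusted p = 0.107 in limma).

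A second, dimmer probe set of Axin2 did not show this difference. It read 4.80, 4.54 and 5.61 in WT 1 to 3 and 5.79, 5.15, 4.52, 4.88 and 5.16 in KO 1 to 5, and the groups overlapped across most of their range. KO 1, the lowest array at the brighter probe set, was the highest here. The WT mean was 4.98 ± 0.559 (SD, n = 3) and the KO mean 5.10 ± 0.466 (SD, n = 5), 0.11 higher in KO (exact permutation p = 0.786). With both probe sets averaged, the log2 fold change of Axin2 was -0.39 (unadjusted p = 0.0981, adjusted p = 0.551 in limma). The sources used here do not say which part or strand of the gene each probe set reads.

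The endothelial, immediate early and adipocyte marker lists are given here for their likeness or opposition to the brighter Axin2 probe set. That choice rests on the values, so the likeness itself tests nothing. The endothelial list shared its lower mean in KO, and the other lists ran against it among the KO arrays. All 5 endothelial markers (Pecam1, Cdh5, Kdr, Tie1 and Emcn) had a lower mean in KO. Their list mean was 8.12, 8.40 and 8.43 in WT 1 to 3 and 7.61, 7.89, 7.80, 7.80 and 8.14 in KO 1 to 5. In this mean, as for Axin2, KO 1 was lowest and KO 5 lay inside the WT range, just above WT 1. Of the single endothelial genes, only Pecam1 and Cdh5 had both traits. KO 5 lay below all WT arrays in Kdr (8.16) and Tie1 (5.82), and in Emcn KO 4 was lowest (6.68). The mean of the 6 immediate early genes was 4.51, 4.14 and 3.92 in WT 1 to 3 and 6.78, 6.78, 5.61, 4.35 and 4.58 in KO 1 to 5, highest where Axin2 was lowest among the KO arrays. The adipocyte list, with group means of 10.5 in WT and 10.4 in KO, averaged 10.371, 10.604 and 10.529 in WT 1 to 3. It averaged 10.785, 10.644, 10.304, 10.243 and 10.181 in KO 1 to 5, the reverse of the order of Axin2 in the KO arrays. None of the adipocyte genes alone held this order across all KO arrays. The part of these lists in the Axin2 difference was not tested. The fibroblast and preadipocyte list, the cells in which WNT signalling is best known in fat, had means of 8.0 to 8.2 in WT and 7.9 to 8.2 in KO.

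**Figure D2:**
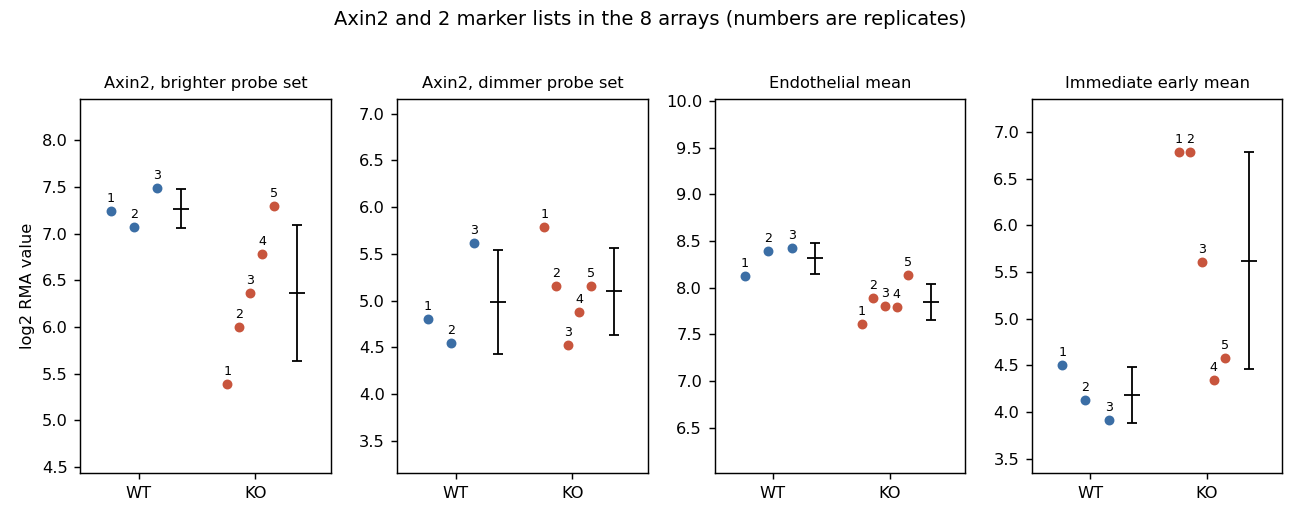
Log2 RMA value (y axis, the same span in each panel) of both Axin2 probe sets and the mean of 5 endothelial and of 6 immediate early genes in each array (points, numbered by replicate; the number has no order), with the mean and SD of each group (bars). At the brighter probe set KO 1 to KO 4 lie below all WT arrays and KO 5 among them, while the dimmer probe set overlaps between the groups.

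The Axin2 start region is shown because this gene, at its brighter probe set, had the largest fitted difference of the 42 WNT genes, and its control by TCF factors is the textbook route from WNT to transcription. The window covers 250 bases before to 50 after the start of the gene on the plus strand, chr11:108920099-108920398 of GRCm38.p6, from RefSeq, where 27 of the 42 WNT genes had such a window. Capitals mark the matches to GGGCGG, the GC box core, searched on both strands.

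Axin2: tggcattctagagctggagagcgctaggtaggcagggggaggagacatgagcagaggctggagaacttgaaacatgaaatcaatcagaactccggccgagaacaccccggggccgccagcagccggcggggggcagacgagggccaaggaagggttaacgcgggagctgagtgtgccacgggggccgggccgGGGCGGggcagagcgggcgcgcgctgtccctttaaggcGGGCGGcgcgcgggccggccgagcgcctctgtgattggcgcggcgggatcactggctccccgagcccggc

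The window is 70.0% G and C, against a median of 52.7% over all 32851 windows of 300 bases. It holds 2 matches to GGGCGG or its reverse complement, which do not overlap, and 35.7% of all windows hold at least 1. The core of the TCF and LEF motif, CTTTG on either strand, has 0 matches in this window and occurs in 53.9% of all windows. A match is a description of letters and says nothing of binding, and the array data do not bear on which site is used.

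Among the 7 tested Frizzled receptors, 4 had a higher mean in KO (Fzd1, Fzd4, Fzd5 and Fzd6) and 3 a lower one (Fzd3, Fzd7 and Fzd8), with log2 fold changes from -0.32 to 0.35 and no adjusted p below the threshold. Fzd4, a receptor for WNT ligands and for norrin that is prominent in vessels, read 9.541, 10.128 and 10.148 in WT 1 to 3 and 10.472, 10.333, 10.115, 10.268 and 10.239 in KO 1 to 5. WT 1 was the lowest array, KO 3 lay just below the other WT arrays, and the remaining KO arrays lay above all of WT. Its log2 fold change was 0.35 (SE 0.164, unadjusted p = 0.0612, adjusted p = 0.494 in limma), and 0.15 without WT 1 (adjusted p = 0.879). The endothelial markers named above ran the other way, lower in KO.

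Fzd7, a receptor of the canonical branch known from stem and progenitor cells, read 6.75, 6.27 and 6.27 in WT 1 to 3 and 5.94, 5.93, 5.97, 6.24 and 6.46 in KO 1 to 5. KO 1 to KO 4 lay below all WT arrays and KO 5 between them, the same division of arrays as for Axin2. The log2 fold change was -0.32 (SE 0.174, unadjusted p = 0.0923, adjusted p = 0.546 in limma). It was -0.16 without WT 1 (adjusted p = 0.897), -0.21 without KO 1 and KO 2 (adjusted p = 0.762) and -0.48 with the replicate block. Fzd5 read 4.26, 4.65 and 4.48 in WT 1 to 3 and 5.00, 4.89, 4.24, 5.16 and 4.68 in KO 1 to 5, with KO 3 below every WT array and the other KO arrays above them all. Its log2 fold change came to 0.33 (SE 0.204, adjusted p = 0.599 in limma). It was 0.47 without KO 3 (unadjusted p = 0.0185, adjusted p = 0.389 in limma) and 0.13 without WT 1 and KO 4 (adjusted p = 0.936).

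Fzd1 separated the KO arrays from each other. It read 5.75, 5.97 and 6.05 in WT 1 to 3, 6.75 and 6.39 in KO 1 and KO 2, and 5.89, 5.94 and 5.88 in KO 3 to KO 5, which lay within the WT range. KO 1 and KO 2 are also the arrays in which immediate early genes and the erythroid gene Slc4a1 were high. The log2 fold change of 0.24 (SE 0.214, adjusted p = 0.726 in limma) was 0.09 without KO 1 (adjusted p = 0.882) and -0.03 without KO 1 and KO 2 (adjusted p = 0.963), and 0.42 with the replicate block (adjusted p = 0.390). Fzd8 ranged from 4.24 to 4.64 in WT and from 4.02 to 4.30 in KO, which gave -0.23 on the log2 scale (SE 0.133, limma adjusted p = 0.576), and -0.12 without WT 1 (adjusted p = 0.898). Fzd3 ranged from 4.58 to 4.85 in WT and from 4.15 to 4.74 in KO (log2 fold change -0.16, adjusted p = 0.770 in limma), a value that was -0.07 without WT 1, -0.06 without KO 3, -0.04 without WT 1 and KO 4, and -0.28 without KO 1 and KO 2. Fzd6 ranged from 5.45 to 6.01 in WT and from 5.24 to 6.29 in KO.

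Both co-receptors overlapped between the groups. Lrp6 read 9.15, 9.30 and 9.29 in WT 1 to 3 and 9.33, 9.38, 9.34, 9.09 and 9.10 in KO 1 to 5. The WT mean was 9.24 ± 0.0816 (SD, n = 3) and the KO mean 9.25 ± 0.139 (SD, n = 5). The 95% confidence interval of the log2 fold change, -0.27 to 0.28, leaves room for a change in either direction. A second Lrp6 probe set averaged 5.27 in WT and 5.24 in KO. Lrp5, the other co-receptor, read 7.57, 7.99 and 8.13 in WT 1 to 3 and 8.27, 8.31, 7.84, 8.04 and 8.03 in KO 1 to 5. WT 1 was again the lowest array, and the log2 fold change of 0.20 (SE 0.165, adjusted p = 0.700 in limma) was 0.04 without it (adjusted p = 0.977) and 0.32 without WT 3.

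Of the genes grouped here as secreted antagonists, Sfrp1, Sfrp2 and Dkk3 were tested. Sfrp1 and Sfrp2 had a higher mean in KO, by log2 fold changes of 0.39 and 0.41. Dkk3 hardly differed (0.01, 95% confidence interval -0.41 to 0.43). Below the level filter, Dkk2 and Wif1 had a higher mean in KO, and Frzb and Sfrp4 a lower one. Sfrp1 binds WNT ligands through a domain like that of the Frizzled receptors. It was tight in WT, at 5.85, 5.89 and 5.82, and read 6.60, 6.49, 6.21, 5.67 and 6.24 in KO 1 to 5. All KO arrays but KO 4 lay above all WT arrays, and KO 4, the array with epididymal transcripts, lay below them. The log2 fold change had an SE of 0.196, an unadjusted p of 0.0775 and an adjusted p of 0.524 in limma, and it was 0.18 without KO 1 and KO 2 (adjusted p = 0.776), 0.53 without WT 1 and KO 4, and 0.58 with the replicate block.

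Sfrp2, a relative of Sfrp1 made by stromal cells, had the largest SD among KO arrays of the 42 genes. It read 4.64, 4.60 and 4.09 in WT 1 to 3 and 5.03, 6.19, 4.95, 3.74 and 4.35 in KO 1 to 5, so the KO arrays lay on both sides of WT. Its SD was 0.909 in KO and 0.307 in WT, and the 95% confidence interval of its log2 fold change was -0.58 to 1.40 (adjusted p = 0.781 in limma). The value depended on single arrays: it was 0.07 without KO 2, 0.69 without KO 4, 0.23 without WT 3, -0.10 without KO 1 and KO 2, and 0.94 with the replicate block (unadjusted p = 0.00802, adjusted p = 0.165 in limma). A second Sfrp2 probe set averaged 2.33 in WT and 2.31 in KO, far under the level filter. Dkk3, a member of the Dickkopf family, ranged from 4.17 to 4.84 in WT and from 4.07 to 4.61 in KO. Rspo1, an R-spondin made by mesothelial and stromal cells, ranged from 7.13 to 7.45 in WT and from 6.73 to 7.64 in KO.

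Only 4 of the 19 WNT ligands reached the level filter, Wnt2b, Wnt5a, Wnt9a and Wnt11. Wnt5a, the best known ligand of the branch that does not act through beta-catenin, read 4.86, 5.11 and 4.87 in WT 1 to 3 and 5.05, 4.94, 4.72, 4.47 and 4.86 in KO 1 to 5. The groups overlapped, with means of 4.95 in WT and 4.81 in KO. Wnt2b, a canonical ligand, ranged from 5.94 to 6.27 in WT and from 5.34 (KO 1) to 6.45 (KO 2) in KO. Wnt11, another ligand of the branch without beta-catenin, read 3.85, 4.18 and 4.07 in WT 1 to 3 and 4.40, 3.96, 3.18, 4.00 and 3.59 in KO 1 to 5. Its log2 fold change of -0.21 (SE 0.243, adjusted p = 0.799 in limma) was -0.04 without KO 3, -0.35 without KO 1, -0.13 without WT 2 and -0.44 without KO 1 and KO 2. Wnt9a ranged from 3.70 to 3.91 in WT and from 3.50 to 4.24 in KO (log2 fold change 0.16, adjusted p = 0.791 in limma), and its fold change was 0.09 without KO 1, 0.08 without KO 4, 0.05 without KO 1 and KO 2, and 0.27 without KO 5.

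**Figure D3:**
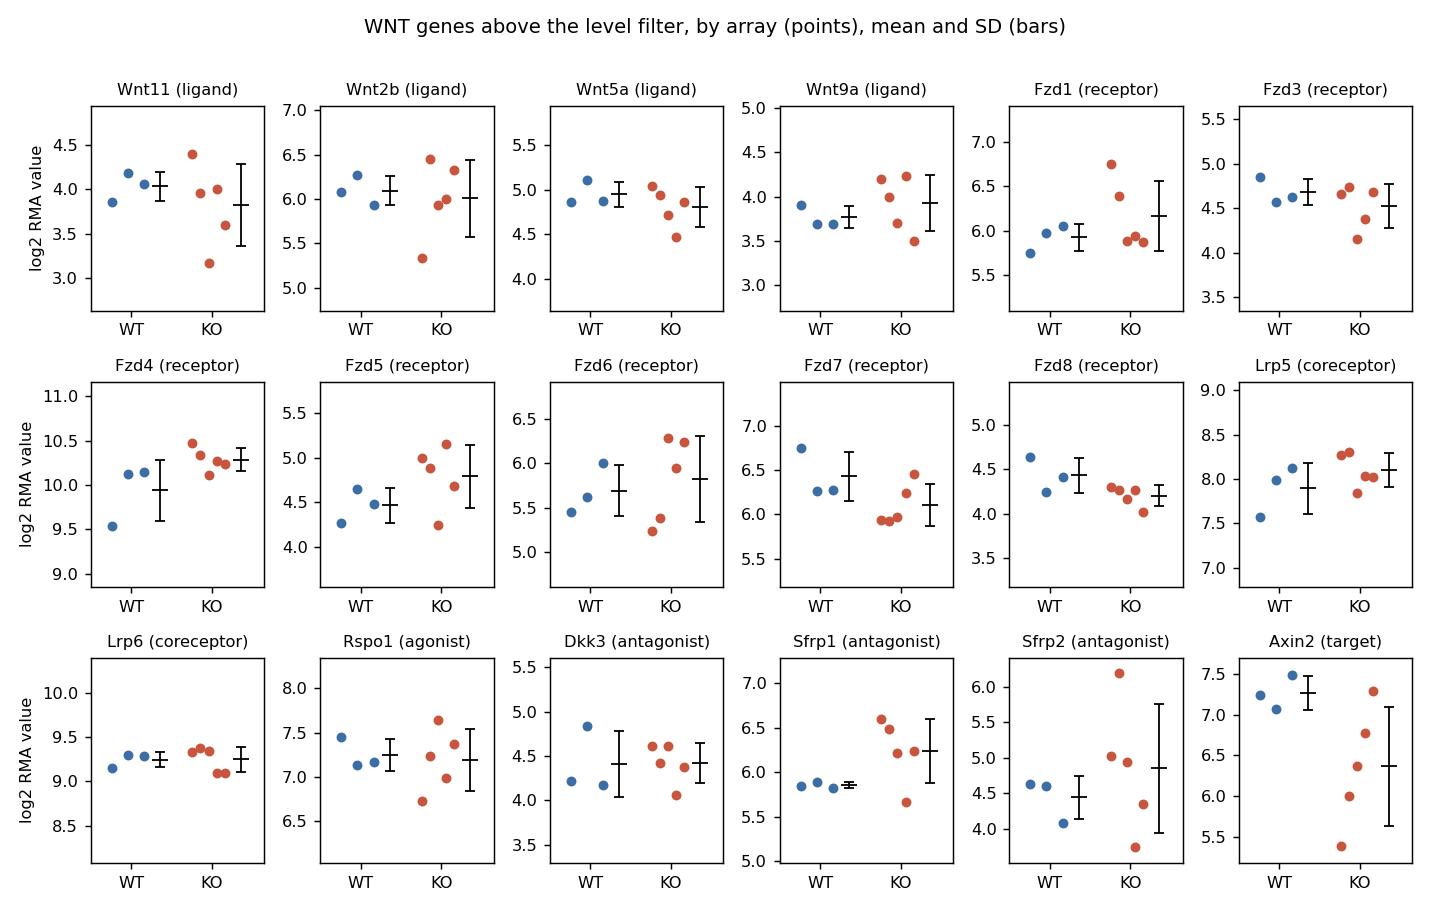
Log2 RMA value (y axis) of the 18 tested WNT genes in each array, WT 1 to 3 and KO 1 to 5 from left to right (points), with the mean and SD of each group (bars). Each panel has its own y range. The groups overlap in every panel, and Axin2 and Sfrp2 show the widest spread among the KO arrays.

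The 24 WNT genes below the level filter were 15 ligands, the receptors Fzd2, Fzd9 and Fzd10, the antagonists Dkk2, Frzb, Sfrp4 and Wif1, the agonist Rspo3, and Fzd10os. Their means over the 8 arrays lay between 1.71 and 3.41, where RMA compresses differences. They include Wnt10b, the ligand best known for restraining adipocyte formation, at 2.10 to 2.27 in WT and 1.87 to 2.86 in KO, and Wnt3a, at 1.66 to 2.11 and 1.59 to 2.45. Fitted with no filter on level, 17 of the 24 had a higher mean in KO and 7 a lower one. The share of dim genes in general with a higher mean in KO was not counted. The median log2 fold change in that fit was 0.085 over the 42 WNT genes and 0.012 over all 22180 genes. None of the 24 passed the threshold in that fit, and 2 of the 24 had an unadjusted p under 0.05, Fzd2 and Wnt8b, against 8.44% of all 22180 genes. In none of the 24 were the groups free of overlap, where 6.57% of all 22180 genes had no overlap.

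Fzd2, a receptor for WNT5A among others, read 3.78, 3.22 and 3.54 in WT 1 to 3 and 2.87, 3.08, 2.74, 3.28 and 2.92 in KO 1 to 5. KO 4 lay just above WT 2, and the other KO arrays lay below all WT arrays. The log2 fold change was -0.53 (SE 0.168, unadjusted p = 0.0100, adjusted p = 0.482 in limma with no filter, exact permutation p = 0.0714), and -0.40 without WT 1 (unadjusted p = 0.0550). Wnt8b, a ligand of the developing forebrain, read 4.27, 3.26 and 2.95 in WT 1 to 3 and 2.91, 3.05, 2.58, 3.02 and 2.65 in KO 1 to 5. WT 1, the array with seminal vesicle and the most sperm and testis transcripts, stood above the rest. The log2 fold change was -0.65 (unadjusted p = 0.0349, adjusted p = 0.564 in limma with no filter, exact permutation p = 0.107), and -0.26 without WT 1 (unadjusted p = 0.183, adjusted p = 0.890). Wnt4, a ligand known from the urogenital tract, was highest in KO 4 (4.25), the array with epididymal transcripts, against 2.64 to 3.51 in the other arrays. The part of those transcripts in Wnt8b and Wnt4 was not tested.

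**Figure D4:**
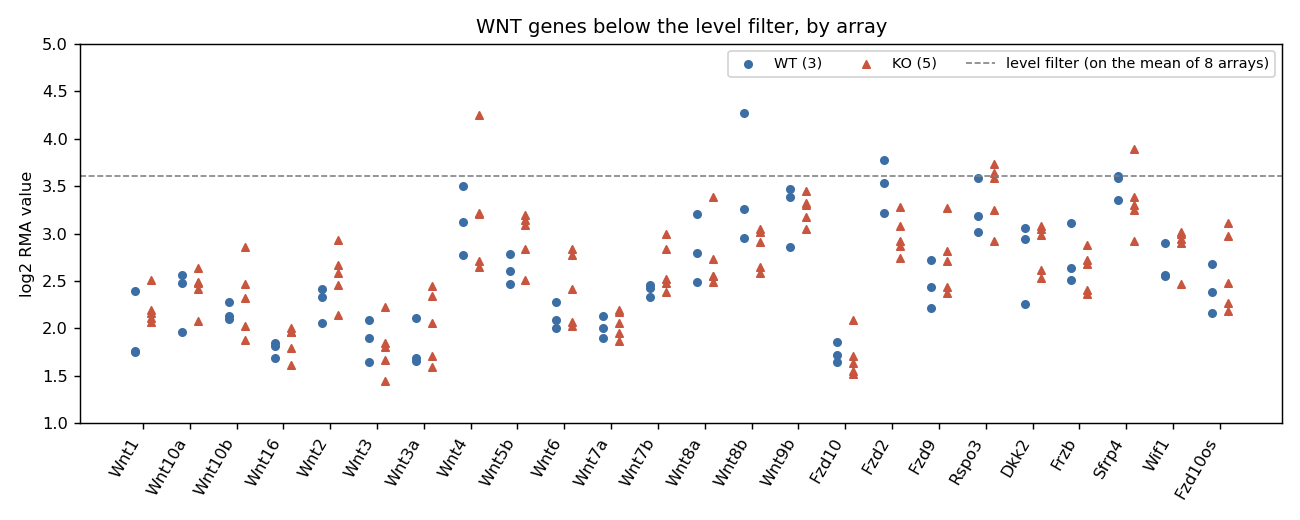
Log2 RMA value (y axis) in each array of the 24 WNT genes whose mean lay below the level filter (dashed line, 3.61), WT as circles (3 arrays) and KO as triangles (5 arrays). WT and KO overlap for each gene, and single arrays stand high for Wnt8b (WT 1, 4.27) and Wnt4 (KO 4, 4.25).

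The rest of the pathway was covered by a list of 80 genes, of which 76 were matched and 52 tested. None passed the threshold, and 1 of the 52 (1.92%) had an unadjusted p under 0.05, beside 10.5% of all tested genes. The means of 27 were higher in KO and those of 25 lower, with a median log2 fold change of 0.01. With the replicate block 10 (19.2%) had an unadjusted p under 0.05, beside 18.0% of all tested genes, and none passed. By role, 6 of 13 tested genes of signal relay and the destruction complex were higher in KO, 4 of 11 nuclear factors, 6 of 10 alternative receptors and planar polarity genes, 2 of 3 receptor turnover genes, and both WNT secretion genes (Porcn and Wls). Ctnnb1, which encodes beta-catenin, read 8.53, 8.49 and 8.62 in WT 1 to 3 and 8.30, 8.27, 8.44, 8.68 and 8.22 in KO 1 to 5, so KO 4 was above all WT arrays and the others below.

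The genes of that list with the smallest unadjusted p were Tle4, Znrf3, Pygo2, Daam1, Axin1 and Nkd1. Tle4, a Groucho corepressor that binds TCF factors, read 6.13, 6.14 and 6.16 in WT 1 to 3 and 5.88, 5.67, 5.77, 6.06 and 5.70 in KO 1 to 5. All KO arrays lay below all WT arrays, KO 4 by little, and the log2 fold change was -0.33 (SE 0.126, unadjusted p = 0.0272, adjusted p = 0.408 in limma). Tle4 was the only 1 of the 52 tested genes (1.92%) whose groups did not overlap, beside 8.53% of all tested genes. Its unadjusted limma p was 0.0673 with arrays centred on their median. With any 1 WT array left out, that p was 0.0534 to 0.0741. Znrf3, a ligase that removes Frizzled receptors and is itself a WNT target, had a log2 fold change of -0.29. Pygo2, a coactivator of beta-catenin, had -0.28 (-0.15 without WT 2) and Axin1, the constitutively expressed relative of Axin2, -0.23. Daam1, an effector of planar polarity signalling, had 0.30 (0.16 without WT 1). All 4 had an adjusted p between 0.483 and 0.544 in limma.

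Other feedback and target genes lay on both sides of 0: of 10 tested, 4 were higher and 6 lower in KO, and none had an unadjusted p under 0.05, where 10.5% of all tested genes did. Nkd1, which like Axin2 is induced by WNT and restrains it, read 4.02, 4.55 and 3.87 in WT 1 to 3 and 4.34, 4.84, 4.42, 5.76 and 4.32 in KO 1 to 5. Its mean was higher in KO (log2 fold change 0.59, SE 0.323, adjusted p = 0.548 in limma), by 0.34 without KO 4 (adjusted p = 0.592), 0.27 without WT 1 and KO 4, and 0.39 with the replicate block (adjusted p = 0.217). The targets Ccnd1 and Myc had log2 fold changes of -0.26 (0.03 without WT 3, -0.42 without WT 1) and 0.40 (0.07 without KO 1 and KO 2, 0.65 with the replicate block). Lef1, Lgr5, Sp5, Nkd2 and Tnfrsf19, other known targets, were below the level filter. The other antagonists and agonists of the list that were tested, Sfrp5, Kremen1 and Apcdd1, each had a higher mean in KO (3 of 3), beside 4969 of all 11090 tested genes. None of them had an unadjusted p under 0.05. Of those below the level filter, Dkk4, Dkkl1, Sostdc1 and Draxin had a lower mean in KO and the rest a higher one. Dkk4 and Dkkl1 had an unadjusted p under 0.05 in limma with no level filter, where 8.44% of all 22180 genes did. Sfrp5, an antagonist tied to fat expansion, read 3.09, 5.22 and 5.50 in WT 1 to 3 and 6.29, 6.28, 5.46, 4.56 and 4.96 in KO 1 to 5. KO 1 and KO 2 lay above all WT arrays, and WT 1 lay far below the rest. Its log2 fold change was 0.91 (SE 0.569, unadjusted p = 0.142, adjusted p = 0.599 in limma), and 0.15 without WT 1 (adjusted p = 0.971), 0.39 without KO 1 and KO 2, and 1.41 with the replicate block. Ccnd1, Myc and Sfrp5 were chosen after their values were seen.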

How the data were processed

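RNA of eWAT from 8 mice (3 WT, 5 KO; 200 ng each) was hybridised to Affymetrix mouse gene arrays. The deposited table holds log2 values per probe set, made by RMA according to the submitters' processing notes, which also name the package oligo. The series design names Expression Console, so which tool made the table is not settled, and the sources used here give no versions or probe positions. Values were used as deposited. RMA compresses differences of dim probe sets. Nothing says more than that each array is a different mouse, and array data carry no counts, so the number of arrays limits the precision.

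Of 41345 probe sets, 23521 had 1 gene symbol in the platform annotation, 1814 several and 16010 none, and 23328 were matched by Entrez identifier to RefSeq (GRCm38.p6) for current symbols. Per gene the probe set with the highest mean was kept. No probe set with several symbols held a WNT gene.

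Fits used limma 3.58.1 (lmFit, eBayes) in R 4.3.3, and exact tests scipy 1.17.1 in Python 3.11.15. Figures were drawn with matplotlib 3.10.9. The fit was also run on simulated data with independent normal noise and no outlying arrays. That run does not bear on the arrays that stood apart here. The members, lists, tests and alternatives were chosen with earlier results of these data known, and the second Axin2 probe set, and the alternatives of Fzd2, Wnt8b, Dkk3, Ccnd1, Myc and Sfrp5, were added after seeing the values. Fold changes are given for tested genes with an unadjusted p under 0.05 or no overlap, then by size up to 12, with Lrp5 and Lrp6 always. Of the pathway list, the 6 genes of smallest p are named. For genes named outside this rule, values or fold changes are given as a description.

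WT and KO share replicate numbers 1 to 3. Deviations from the group means correlated at 0.133, 0.103 and 0.192 for same-numbered arrays over the tested genes, all above 0.1. Arrays of different number correlated at -0.244 (WT 3 and KO 1) to 0.105 (WT 2 and KO 1). WT 2 and KO 1 thus pass that criterion too, so it does not settle whether the numbers pair the arrays, and the labels state no pairing. A replicate block was fitted as an alternative only, and its fold changes rest on arrays 1 to 3 of each group.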

Additional observations from a re-analysis of the deposited data

Results flagged for a closer look

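In the KO group, single arrays stood far from the other 4 for 3 WNT genes, all below the level filter, and for 1 marker list. Wif1 was 2.465 in KO 3 against 2.902 to 3.011 in the other KO arrays. Wnt1 was 2.512 in KO 5 against 2.070 to 2.189. Wnt8a was 3.388 in KO 2 against 2.487 to 2.735. The epididymal marker mean was 6.363 in KO 4 against 2.155 to 2.563. The gap to the nearest KO array exceeded 0.71 of the KO range in each. Of 65 KO groups of values examined 4 stood out so, where chance gives about 1 in 20.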

How the results depend on the processing

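No WNT gene and no gene of the pathway list passed the threshold in limma under any alternative run, while over all tested genes up to 40 did (with array weights). The number of WNT genes with an unadjusted p under 0.05 was 1 in the report (5.56%, beside 10.5% of all tested genes). It was 3 with no level filter (7.14%, beside 8.44%) or with the filter at the 25th percentile (8.33%, beside 9.2%). It was 2 with the filter at the 75th percentile (22.2%, beside 12.2%) or a trended and robust prior (11.1%, beside 10.6%). It was 3 with array weights (16.7%, beside 16.9%) and 4 with the replicate block (22.2%, beside 18.0%). It was 0 with probe sets of a gene averaged (beside 10.4%) or the second Axin2 probe set (beside 10.5%). With 1 array left out it was 0 to 2, beside 6.72% to 14.4% of all tested genes. For the pathway list, also 1 (1.92%, beside 10.5%), it was 3 with no level filter (3.95%, beside 8.44%) or the filter at the 25th percentile (4.05%, beside 9.2%). It was 0 with the filter at the 75th percentile (beside 12.2%) or arrays centred on their median (beside 8.82%). It was 2 after a further quantile normalization (3.85%, beside 10.4%) and 4 with array weights (7.69%, beside 16.9%). It was 10 with the replicate block (19.2%, beside 18.0%), and 2 without WT 1 and KO 4 (3.85%, beside 6.6%). With 1 array left out it was 0 to 4 (0.0% to 7.69%), beside 6.72% to 14.4% of all tested genes. The block changed no call at the adjusted threshold.

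Of 447 fold changes of 25 genes under alternatives, 430 kept their direction. Those that turned were Axin2 with its second probe set (0.11), Sfrp2 (-0.10) and Fzd1 (-0.03) without KO 1 and KO 2, and Lrp6, near 0 throughout, with Dkk3 and Ccnd1. Lrp6 was -0.01 with its probe sets averaged, -0.07 without KO 1 and KO 2, -0.00575 without WT 1 and KO 4, and between -0.04 and 0.04 with 1 array left out. Dkk3, also near 0, was -0.00686 with array weights, -0.06 without KO 1 and KO 2, and between -0.11 and 0.22 with 1 array left out, and Ccnd1 ran from -0.42 to 0.03. The adjusted p of Axin2 ranged from 0.107 to 0.920. The causes were not tested. Of the 42 genes 24 lay below the level filter, where RMA compresses differences.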
